A study of Mus musculus with 14 samples.

Results

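The collagen genes were taken as the protein-coding genes on autosomes whose symbols have the form Col, a number, a and a number. The annotation held 42 of them among 20807 autosomal protein-coding genes, and the 2 collagen genes on chromosome X were outside the rule. For each gene, H3K4me3 peaks with any base within 1 kb of an annotated transcription start site (TSS) and putative enhancers in the gene or within 50 kb of it were collected. Of the 42 genes, 29 had a peak at a TSS (69%, against 60.3% of all autosomal protein-coding genes). An enhancer was in reach of 38 genes (90.5%, against 64.3%). The members therefore ranged from Col5a1, whose promoter carried a peak of 6056 bp, to 13 genes with no promoter peak, among them most of the cartilage collagens.

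Collagens are triple-helical proteins of the extracellular matrix, and each triple helix is built from alpha chains that are encoded by separate genes. Fibrillar collagens form the fibrils of skin, bone and tendon, network-forming collagens build basement membranes, and the fibril-associated collagens with interrupted triple helices (FACITs) coat the surface of fibrils. Fibroblasts are a main source of the fibrillar chains, while types II, IX, X and XI are best known from cartilage. Trimethylation of lysine 4 of histone H3 (H3K4me3) is a mark of active promoters, which the KMT2 methyltransferases deposit with the help of the subunit ASH2L.

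The cells were immortalised mouse embryo fibroblasts (iMEF) whose floxed alleles of Ash2l could be cut by a Cre-ER recombinase. In the clones of the study, exon 4 of the endogenous Ash2l had been deleted, and all cells lived on a lentiviral FKBP12F36V-tagged human ASH2L, which the compound dTAG sends to degradation. The 14 libraries comprised 12 H3K4me3 libraries in 6 groups of 2 replicates, namely cells without dTAG and cells given dTAG for 30 min, 2 h, 4 h, 8 h or 16 h, and 2 input libraries, 1 without dTAG and 1 at 16 h. The study names clone NG3 for its ChIP-seq experiments, so the peaks describe a single clone. Both lists give positions only, the peaks as a union over libraries and the enhancers as regions of control cells with H3K4me1, H3K27ac and open chromatin. They hold no value for any library, so they show neither the depth of a library nor a replicate error, and neither the response to dTAG nor any difference could be tested here. A peak says that H3K4me3 was found in at least 1 setting, not at which time. All counts below are descriptions, set beside the same count over all autosomal protein-coding genes.

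The cell type label was checked against marker genes. Of 11 fibroblast markers, 9 had a peak at a TSS. The widest peaks of Twist2, Prrx1, Pdgfrb, Vim, Pdgfra and Thy1 measured 3079, 3018, 2721, 2598, 2520 and 1797 bp. Those of S100a4, Fn1 and Fap measured 944, 750 and 368 bp. Dcn and Lum, which encode small proteoglycans that bind collagen fibrils, had none. A peak was found at 4 of 7 chondrocyte markers (57.1%) and 1 of 5 osteoblast markers (20%). There was one at 2 of 6 epithelial markers (33.3%), namely Epcam (724 bp) and Cdh1 (602 bp). Of 4 endothelial markers, 2 had one (50%), namely Kdr (1009 bp) and Tek (435 bp). None of the 4 blood markers and none of the 4 muscle markers had one. The share was 81.8% for the fibroblast markers and 60.3% over all autosomal protein-coding genes. Sox9 and Runx2, the regulators of chondrocyte and osteoblast fate, had peaks of 2947 and 3386 bp. Of the other chondrocyte markers, Comp, Matn3 and Hapln1 had peaks of 283, 476 and 758 bp, and Acan, Matn1 and Snorc had none. The other osteoblast markers, Sp7, Bglap, Ibsp and Dmp1, had none.

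The 29 collagen genes with a peak at a TSS made up 69% of the members. Over all autosomal protein-coding genes the share was 60.3%, close to that of the family. By class, a peak was present at 7 of 8 fibrillar genes, 7 of 7 basement membrane genes, 5 of 6 FACIT genes, 8 of 14 other genes and 2 of 7 cartilage genes. At the principal TSS, taken as the most upstream start of the transcripts that GENCODE ranks as principal, 27 members had a peak (64.3%, against 57.5% of all genes). The exceptions were Col18a1 and Col22a1, where the peak lay at another annotated start. The widest peak of each gene had a median of 1018 bp over the 29 members and of 1264 bp over the 12545 genes with a peak. Widths spread from 200 to 6056 bp, with quartiles of 670 and 1382 bp, against 916 and 1718 bp over all genes with a peak. A peak over 2000 bp was counted for 6 members, of which Col4a1 and Col4a2 share the same peak. The narrowest of these, 2330 bp at Col8a1, was exceeded at 9.41% of all genes with a peak. In 5 members no peak was as wide as 500 bp. The widest of these, 382 bp at Col3a1, was exceeded at 96.9% of all genes with a peak.

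**Figure D1:**
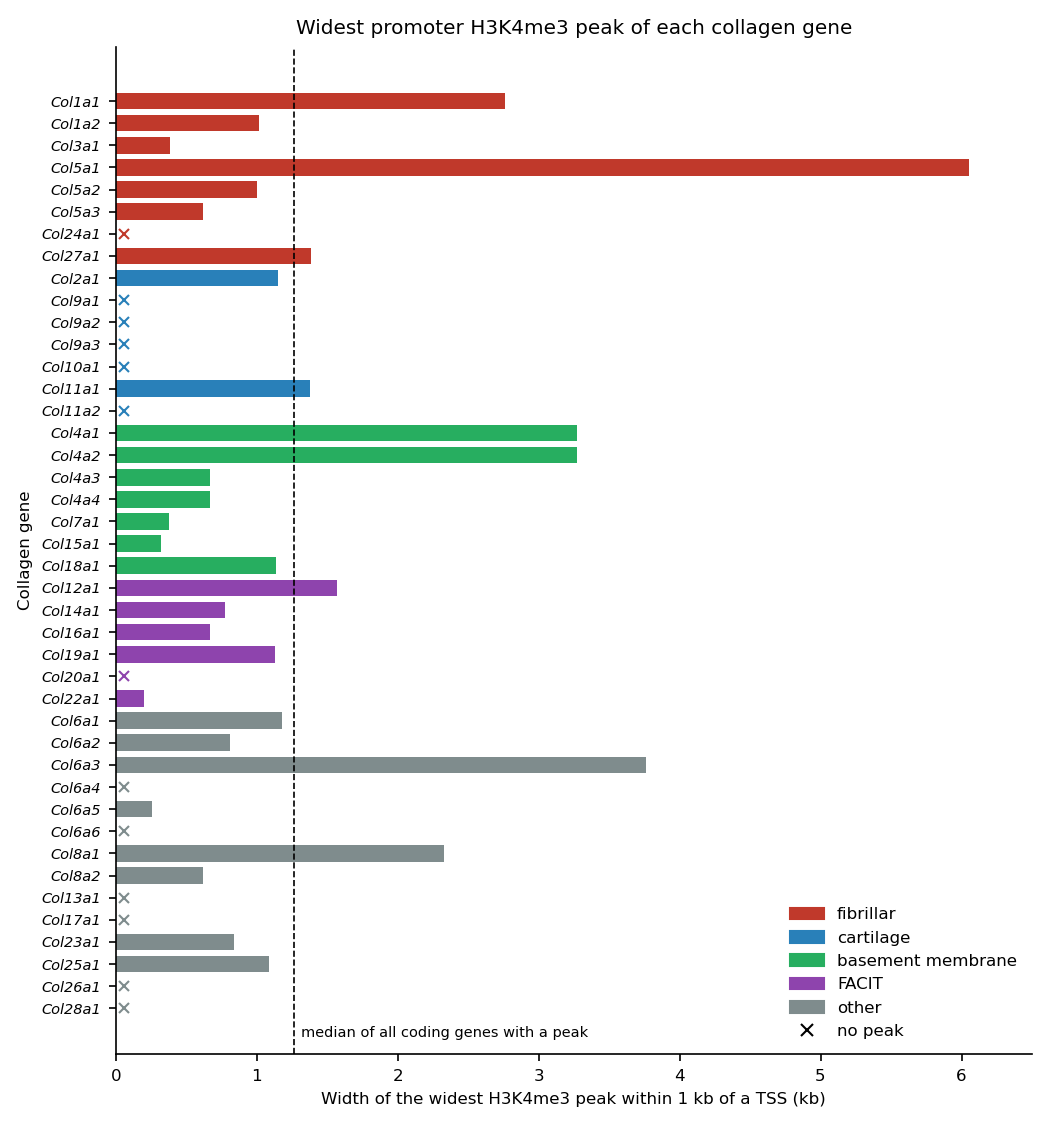
Width in kb of the widest H3K4me3 peak within 1 kb of any TSS (horizontal bars) for each of the 42 collagen genes, coloured by class, with a cross for a gene without a peak and a dashed line at the median of all coding genes with a peak, 1264 bp. Col5a1 (6056 bp), Col6a3 (3765 bp) and Col4a1 with Col4a2 (3269 bp) carry the widest peaks, and 5 of 7 cartilage genes carry none.

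CpG islands, stretches of DNA rich in CG dinucleotides, mark most promoters that carry H3K4me3. An island lay within 1 kb of a TSS in 18 of 42 collagen genes (42.9%), against 59.2% of all genes. Of the 18 collagen genes with an island, 14 had a peak (77.8%), while the share over all genes with an island was 90.2%. Of the 24 collagen genes without an island, 15 had a peak (62.5%), and here the share over all genes without an island was 16.9%. Islands were thus missing at 15 of the 29 collagen genes with a peak. An island was present at 48.3% of the 29, against 88.6% of all genes with a peak. Among the 15, Col3a1, Col6a5, Col7a1 and Col22a1 had no peak as wide as 500 bp. The ratio of observed to expected CpGs within 500 bp of the principal TSS had a median of 0.46 over the 29 members with a peak and 0.74 over all genes with one. Over genes without a peak, the medians were 0.31 for the 13 collagen genes and 0.2 for all genes.

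Wide peaks were found at both kinds of promoter. Col5a1, with a ratio of 0.82, and the shared start of Col4a1 and Col4a2, with 0.77 and 0.78, lie in islands. Col6a3 (0.28), Col1a1 (0.3) and Col8a1 (0.51) had no island, but their widest peaks measured 3765, 2761 and 2330 bp. Conversely, Col9a2, Col9a3, Col13a1 and Col26a1 had an island and no peak, with ratios of 0.48, 0.44, 0.75 and 0.63. Col3a1 stood at the other end, with 7 CpGs in its window, a ratio of 0.18 and a peak of 382 bp.

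**Figure D2:**
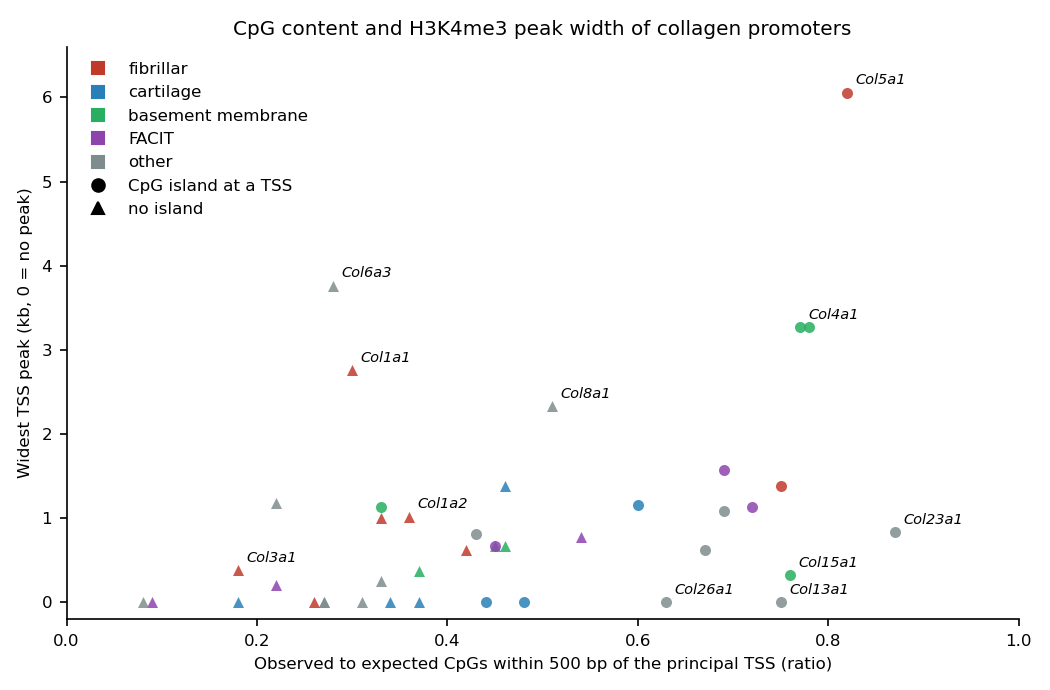
Ratio of observed to expected CpGs within 500 bp of the principal TSS (horizontal axis) and width in kb of the widest TSS peak (vertical axis, 0 for no peak) of the 42 collagen genes, with circles for genes with a CpG island at a TSS, triangles for genes without one, and colours for the classes. Triangles such as Col6a3 and Col1a1 reach widths that most circles do not, and Col13a1 and Col26a1 are circles without a peak.

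The sequences before the RefSeq starts show these kinds of promoter side by side. The nearest upstream bases outside every annotated exon are printed 5′ to 3′ in the orientation of the gene, in build GRCm38.p6, with motif matches on either strand in capitals. The motifs searched were the CCAAT box written as CCAAT, the core of the GC box written as GGGCGG, the AP-1 site written as TGANTCA with N for any base, the TATA box written as TATAAA and the E-box written as CACGTG, and matches of different motifs were counted even where they overlapped. Col5a1, Col11a1 and Col6a3 have the widest peaks of the fibrillar, cartilage and other classes, and Col6a3 is also the widest without an island. The widest basement membrane peak lies over starts whose neighbouring bases are exonic, so the 71 bases between Col4a3 and Col4a4 are shown for that class. Col1a2 and Col3a1 are shown as chains of different collagen types of dermal fibrils, the first with H3K4me3 in several pieces and the second with a single short TSS peak. These last 3 stretches were chosen after their values were seen.
Col5a1, chr2:27886245-27886424, plus strand: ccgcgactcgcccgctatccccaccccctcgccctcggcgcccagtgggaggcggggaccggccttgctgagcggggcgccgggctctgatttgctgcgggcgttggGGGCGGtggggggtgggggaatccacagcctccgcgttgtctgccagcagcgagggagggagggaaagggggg
Col11a1, chr3:114030360-114030539, plus strand: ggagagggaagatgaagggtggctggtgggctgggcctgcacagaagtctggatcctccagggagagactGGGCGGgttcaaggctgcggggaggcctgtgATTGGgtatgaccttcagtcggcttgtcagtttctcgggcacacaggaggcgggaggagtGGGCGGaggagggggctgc
Col6a3, chr1:90843972-90844151, minus strand: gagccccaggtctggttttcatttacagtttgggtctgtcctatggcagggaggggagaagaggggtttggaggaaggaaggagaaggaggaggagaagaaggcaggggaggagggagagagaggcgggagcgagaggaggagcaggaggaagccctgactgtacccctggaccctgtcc
Col4a4, chr1:82586850-82586920, minus strand: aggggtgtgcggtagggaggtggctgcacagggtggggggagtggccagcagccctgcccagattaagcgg
Col1a2, chr6:4505370-4505492, plus strand: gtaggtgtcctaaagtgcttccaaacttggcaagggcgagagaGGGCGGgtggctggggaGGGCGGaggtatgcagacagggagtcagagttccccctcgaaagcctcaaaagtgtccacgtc
Col3a1, chr1:45311358-45311537, plus strand: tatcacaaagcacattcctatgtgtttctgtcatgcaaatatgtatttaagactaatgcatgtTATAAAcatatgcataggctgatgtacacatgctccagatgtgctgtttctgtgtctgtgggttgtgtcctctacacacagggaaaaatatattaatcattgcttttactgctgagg

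The genes without a peak are represented by Col9a2 and Col13a1, which have an island, and by Col10a1 and Col17a1, which have none. They too were picked with their values known.
Col9a2, chr4:121039316-121039384, plus strand: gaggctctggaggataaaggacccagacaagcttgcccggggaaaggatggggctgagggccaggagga
Col13a1, chr10:61979109-61979288, minus strand: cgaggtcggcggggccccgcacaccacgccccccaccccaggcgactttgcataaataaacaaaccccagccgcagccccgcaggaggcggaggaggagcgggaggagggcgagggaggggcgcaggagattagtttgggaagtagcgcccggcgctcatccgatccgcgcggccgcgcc
Col10a1, chr10:34389801-34389980, plus strand: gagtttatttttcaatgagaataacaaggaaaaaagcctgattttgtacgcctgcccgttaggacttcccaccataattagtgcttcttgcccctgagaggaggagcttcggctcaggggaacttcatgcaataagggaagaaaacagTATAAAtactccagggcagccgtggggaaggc
Col17a1, chr19:47692095-47692274, minus strand: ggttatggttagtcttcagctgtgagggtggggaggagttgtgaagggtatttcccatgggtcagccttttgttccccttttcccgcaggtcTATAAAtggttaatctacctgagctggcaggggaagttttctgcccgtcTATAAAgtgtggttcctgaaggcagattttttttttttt

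GGGCGG, to which Sp1 is known to bind, stood at 1 place in the Col5a1 stretch and at 2 places in the Col11a1 stretch, which also held CCAAT on the other strand. The stretches of Col6a3, Col4a4, Col9a2 and Col13a1 held none of the 5 motifs. The Col9a2 stretch covers only -250 to -182 from the start, and the rest of its promoter held GGGCGG at -26, -14 and 43. The Col1a2 stretch covers -248 to -126, and the rest of its promoter held CCAAT at -109 and 0. The Col17a1 stretch covers -232 to -53, and the rest of its promoter held CCAAT at -31. Outside the Col13a1 stretch, its promoter held TATAAA at -237, and outside the Col5a1 stretch, its promoter held GGGCGG at -205. RefSeq promoters of 300 bases were on hand for 33 of the 42 genes, with 36 entries in all. GGGCGG was present in 21 of the 36 (58.3%), against 36% of 31396 autosomal promoters of this length. CCAAT was present in 12 (33.3%, against 37.3%), TATAAA in 5 (13.9%, against 13.6%), TGANTCA in 1 (2.78%, against 7.84%) and CACGTG in 0 (against 7.14%). The 5 promoters with TATAAA belonged to Col3a1, Col10a1, Col11a2, Col13a1 and Col17a1, and of these genes only Col3a1 had a peak. In Col10a1 the match began at -32, with the start as 0, where TATA boxes usually stand, and in the other 4 promoters matches began at -237 to -91.

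Among the fibrillar collagens, Col5a1, which encodes a chain of type V collagen that starts and regulates fibril assembly, had the widest peak of the family. It spanned chr2:27885359-27891414 and ran from 1066 bp upstream to 4989 bp downstream of the TSS, with 74.1% of its bases intronic and 8.26% exonic. Another annotated gene also had a TSS within 1 kb of this peak. Only 5 of the 12545 genes with a peak had a wider one (0.0399%). Col5a2, the partner chain of Col5a1, had 1 TSS peak of 1004 bp that began 22 bp inside the gene, and Col5a3 had 1 of 619 bp. Col27a1, a fibrillar chain of cartilage and other tissues, had peaks of 1127 and 1382 bp that each held an annotated start. Col24a1 was the fibrillar gene without a peak, over 259.5 kb of gene.

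The chains of type I collagen, the main protein of skin and bone matrix, had their H3K4me3 in many pieces. Col1a1 had 4 TSS peaks of 335, 270, 2761 and 1008 bp. With gaps of up to 1 kb joined, 9 peaks formed a run of 8731 bp from -3458 to 5272 bp around the TSS, and 73.6% of the run was covered. Only 0.112% of all genes with a peak had a longer run. The principal TSS itself lay in a gap of 96 bp, 2 bp before the 2761-bp peak. Col1a2 had 5 pieces in a run of 3571 bp, of which 63.5% was covered. Its TSS peaks measured 408 and 1018 bp, with a gap of 94 bp between them, and it had 4 further peaks of 240 to 396 bp in the gene body. Peaks covered 26.4% of the short Col1a1 gene, a share that 5.82% of all genes exceeded. Col3a1, the partner of type I in elastic tissues, had a single TSS peak of 382 bp, narrower than the widest peak of 96.9% of genes with one.

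**Figure D3:**
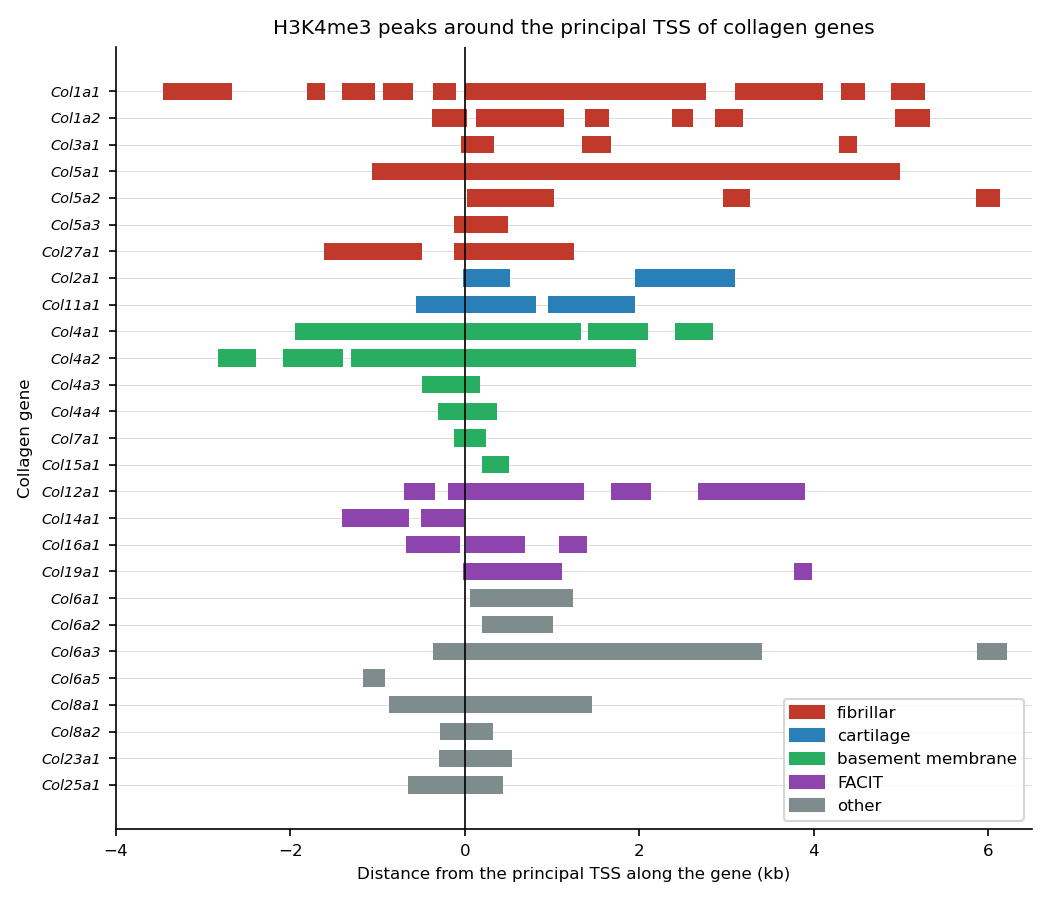
H3K4me3 peaks (bars, coloured by class) between -4 and 6.5 kb of the principal TSS (vertical line, positive distances lie downstream along the gene) of the 27 collagen genes with a peak there. Col5a1 and Col6a3 show a single long bar that extends into the gene, Col1a1, Col1a2 and Col12a1 show chains of separate bars, and the bar of Col6a5 lies 909 bp before its TSS.

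Runs in 2 or more pieces were seen at 9 of 29 members with a peak (31%), against 42.1% of all genes with one. Runs of 4 or more pieces were seen at 3 members, Col1a1, Col1a2 and Col12a1 (10.3%), against 3.06% of all genes. The principal TSS lay inside a peak in 19 of the 27 members (70.4%), against 81.3% of all genes. The other 8 starts were beside their peak, by 2 bp in Col1a1, 4 bp in Col14a1, 19 bp in Col16a1, 22 bp in Col5a2, 64 bp in Col6a1, 192 bp in Col15a1, 197 bp in Col6a2 and 909 bp in Col6a5. At 15 of the 19 starts inside a peak, the peak reached farther downstream than upstream (78.9%, against 85% of all genes), where a peak shared by a divergent pair of genes counts for the start of each. The median reach was 303 bp upstream and 541 bp downstream, against 314 and 930 bp over all genes. The downstream end of the peak at the principal TSS fell into the first intron in 17 of 27 genes (63%), against 71.9% of all genes.

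The basement membrane genes all had a peak, and 4 of them share 2 promoters. Col4a1 and Col4a2, the chains found in nearly every basement membrane, are transcribed in opposite directions from principal starts 21 bp apart. Both were counted for the same peak of 3269 bp, chr8:11311498-11314766, which 2.05% of genes with a peak exceeded. It reached 1940 bp into Col4a2 and 1328 bp into Col4a1 as measured from the Col4a1 start, and 2 more peaks of 692 and 436 bp followed on the Col4a1 side. Col4a3 and Col4a4, chains of the kidney filter, also face away from each other, with 71 bp between the genes. They shared a peak of 671 bp, chr1:82586482-82587152, narrower than that of 88.8% of genes with a peak. Col18a1, which carries endostatin at its end, had no peak at its principal TSS and 1 of 1136 bp by another start farther upstream, with the near edge of the peak 51648 bp from the principal TSS. Col15a1, its relative, had a peak of 320 bp, and Col7a1, the anchoring fibril chain of skin, 1 of 375 bp.

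Of the FACIT genes, Col12a1, which is found on fibrils of tendon and ligament, had the widest peak, 1569 bp. It was part of 4 pieces over 4596 bp, with a gene body peak of 1238 bp at 2667 to 3904 bp from the TSS. Col14a1 had 2 peaks of 774 and 500 bp that both ended before the principal TSS, Col16a1 had 3 of 613, 670 and 316 bp, and Col19a1 had 1 of 1130 bp that began 16 bp upstream of the TSS. Col20a1 had none. Col22a1, found at tissue junctions, was counted only through a peak of 200 bp, the shortest width in the list, 616 bp from a minor start and 80469 bp from the principal TSS. It also had 5 gene body peaks of 200 to 340 bp, and 0.433% of all genes had as many or more. Col22a1, Col2a1 and Col14a1 lie on chromosome 15, where peaks over 1 kb from any TSS had a density of 5.72 per Mb, whereas each other autosome had between 1.98 and 3.63 per Mb. The part of this density in the peaks of Col22a1 was not tested.

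Of the cartilage genes, Col2a1 and Col11a1 had a peak. Col2a1, the main fibril chain of cartilage, had 1 of 540 bp over its TSS and a wider one of 1153 bp that began 1945 bp downstream, over an annotated minor start. Col11a1, which copolymerises with type II, had peaks of 1381 and 990 bp. Col9a1, Col9a2 and Col9a3, the chains of the FACIT type IX, had none at a TSS, nor had Col10a1, the marker of hypertrophic chondrocytes, or Col11a2. Col9a1 had 1 peak of 235 bp near its end, 73966 bp from the principal TSS. When types II and XI were counted as fibrillar and type IX as FACIT, as their protein structure would have it, a peak was present in 9 of 11 fibrillar and 5 of 9 FACIT genes.

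Among the remaining genes, type VI collagen, which forms beaded filaments around cells, showed the widest range. Col6a3 had a peak of 3765 bp, chr1:90840551-90844315, that began 363 bp upstream and ran 3401 bp into the gene, with 84.9% of its bases intronic. Only 0.933% of genes with a peak had a wider one. Col6a1 and Col6a2, its partner chains, had 1 peak each, of 1178 and 813 bp. The chains Col6a4, Col6a5 and Col6a6 lie next to each other on chromosome 9, and only Col6a5 was counted, for a peak of 257 bp outside the gene. Of the short-chain collagens of type VIII, found around vessels and in the cornea, Col8a1 had 1 peak of 2330 bp and Col8a2 had 3 of 619, 237 and 279 bp, the last 2 of them about an internal start. Of the transmembrane collagens, Col23a1 and Col25a1 had peaks of 837 and 1090 bp, and Col13a1 and Col17a1 had none. Col26a1 and Col28a1 had none at a TSS.

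Peaks in the gene, over 1 kb from any of its own starts, were found in 12 of 42 members (28.6%), against 14% of all genes. The median collagen gene was 111 kb long and the median coding gene 17.6 kb, and the part of length in this was not tested. The 12 members had 24 such peaks in all, of which 2 overlapped an enhancer, 1 each in Col3a1 and Col8a2.

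Putative enhancers were within reach of 38 members (90.5%), against 64.3% of all genes, and 26 members had one in the gene itself (61.9%, against 25.8%). The median number was 4 per collagen gene and 1 per coding gene. Since long genes have a longer span searched, the number per 100 kb searched was also taken, and its median was 1.58 for collagen genes and 0.937 for all genes. The 198 pairs of gene and enhancer held 180 distinct regions, since 18 were counted for 2 neighbouring collagen genes, 9 of them for Col4a1 and Col4a2. Of the 180, 109 lay in a collagen gene, and 81 of those 109 touched no exon of it. Their median width was 451 bp, against 407 bp over all autosomal enhancers. Of the 180, 19 were closer than 1 kb to some annotated TSS, and 119 had a collagen gene start as the nearest start of a coding gene.

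**Figure D4:**
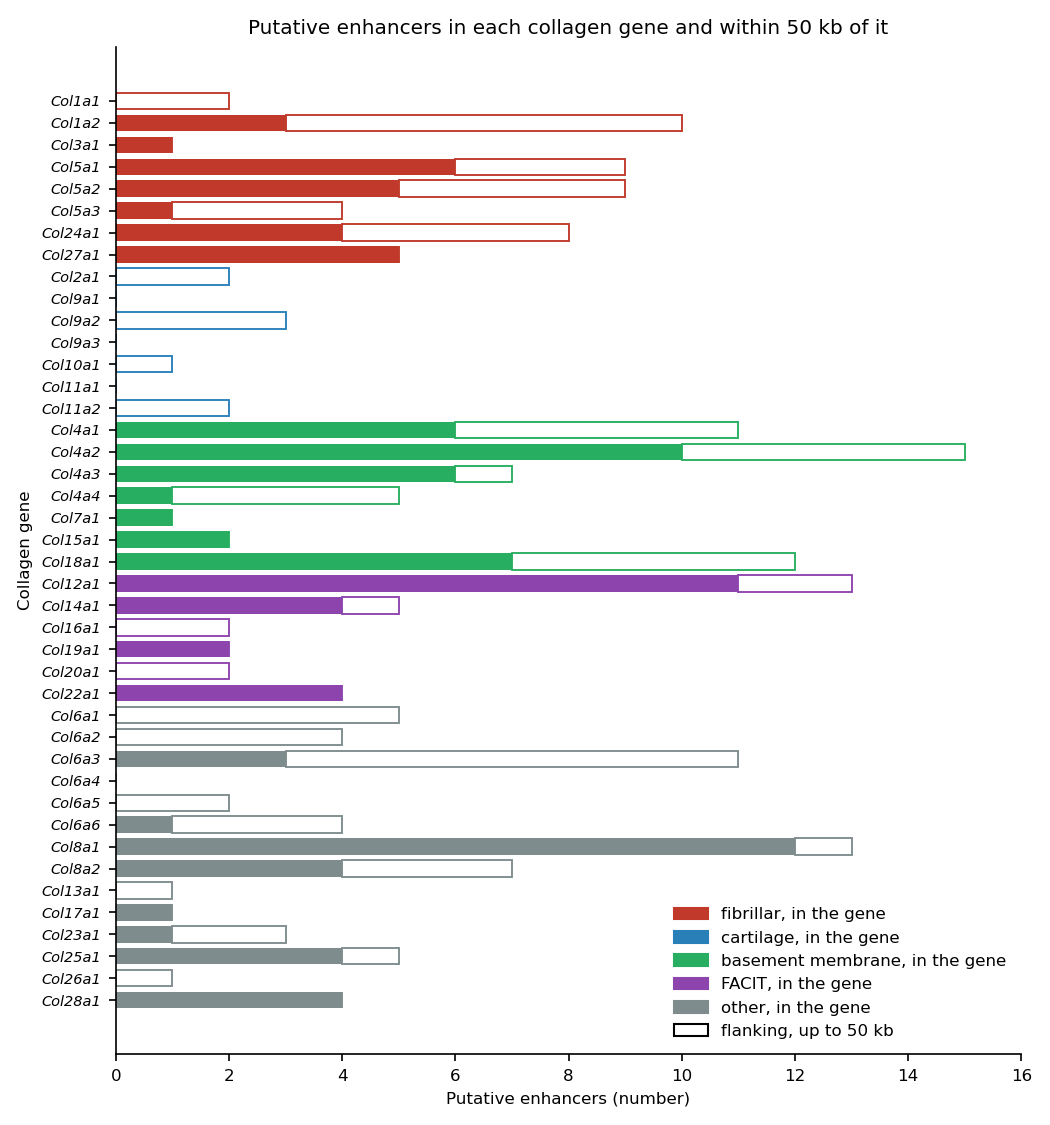
Number of putative enhancers in each of the 42 collagen genes (filled bars, coloured by class) and in the flanks up to 50 kb (open bars). Col4a2 has the most with 15, followed by Col8a1 and Col12a1 with 13, and Col9a1, Col9a3, Col11a1 and Col6a4 have 0.

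The enhancers were unevenly spread. The 7 genes with 10 or more, Col4a2 (15), Col8a1 (13), Col12a1 (13), Col18a1 (12), Col4a1 (11), Col6a3 (11) and Col1a2 (10), held 76 of the 180 regions, or 42.2%. Every fibrillar, basement membrane and FACIT gene had at least 1. The cartilage genes had 8 in all, none inside a cartilage gene, and some of these lay in other genes, such as 3 in Zmpste24 for Col9a2 and 1 in Senp1 for Col2a1. With a median length of 27.2 kb, cartilage genes had less sequence searched. Per 100 kb searched, their median was 0.934, against 0.937 for all genes and 1.17 to 2.98 for the other classes. Col11a1 combined peaks of 1381 and 990 bp with 0 enhancers in reach. Col24a1 was the converse, with no peak and 8 enhancers, 4 of them in the gene.

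The place of the enhancers differed between the genes that have many. In Col8a1, 12 of 13 lay in the gene, the nearest 3.56 kb from the TSS, and none touched an exon. In Col12a1, 11 of 13 lay in the gene, but all were 35.09 kb or more from the TSS, and 7 touched an exon. In Col6a3, 3 lay in the gene and 8 beyond its end, up to 124.48 kb from the TSS. In Col1a2, 7 lay upstream at -2.15 to -48.64 kb, among them a region of 1814 bp at -15.95 kb, chr6:4488634-4490447, and 3 lay in the gene at 15.48 to 25.77 kb. The 3 in the gene and the upstream regions at -22.17 and -21.49 kb were closer than 1 kb to an annotated TSS. Those at -48.64 and -21.49 kb overlapped an H3K4me3 peak. All 10 had the start of Col1a2 as the nearest start of a coding gene. Col1a1, by contrast, had 2, of 201 and 226 bp, and none in the gene. Col5a1 had the widest enhancer of the set, 2227 bp at -50.8 kb, chr2:27834508-27836734.

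**Figure D5:**
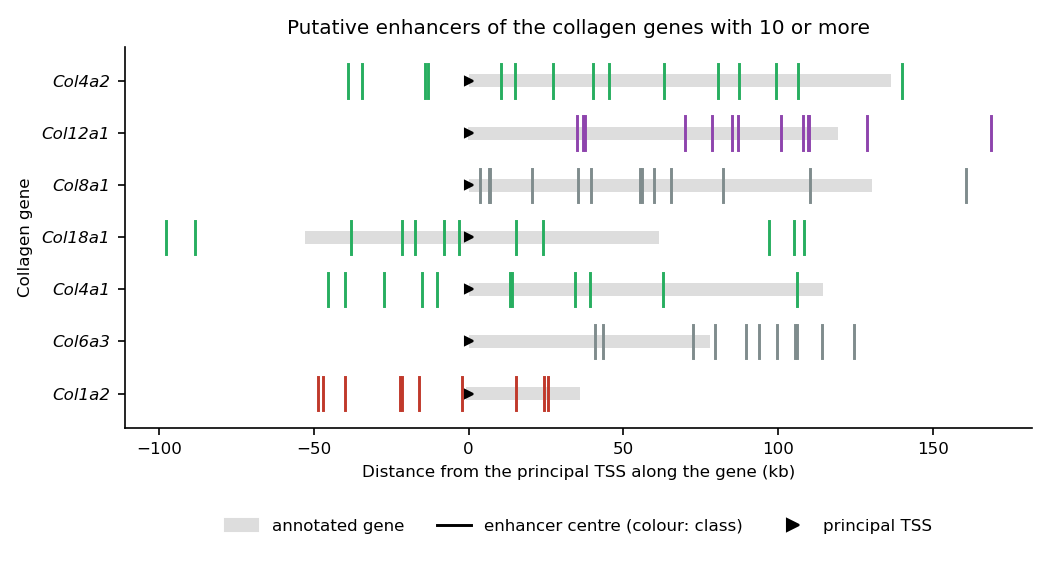
Centres of the putative enhancers (coloured ticks) along the 7 collagen genes with 10 or more, in kb from the principal TSS (arrowhead), with the annotated gene in grey. Those of Col8a1 and Col12a1 lie mostly in the gene, those of Col6a3 beyond its end, and 7 of the 10 of Col1a2 upstream.

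In the central 300 bases of the enhancers, TGANTCA was present in 46 of the 180 (25.6%), against 22% of the 32465 autosomal enhancers. CCAAT was present in 31.7%, against 31.6%, and GGGCGG in 3.89%, against 6.89%. TATAAA was present in 16.1%, against 13.6%, and CACGTG in 5%, against 4.64%.

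The genes listed for the modification, folding, export and processing of collagen chains all carried a peak. All 14 hydroxylase and glycosyltransferase genes had a peak at a TSS, from 780 bp at Colgalt2 to 3153 bp at P3h4, and so had all 9 genes of folding and export. Serpinh1, which encodes the collagen chaperone HSP47, had the widest of these with 3483 bp, without a CpG island. All 8 genes of procollagen processing had a peak, among them Pcolce with 3186 bp and Bmp1 with 2051 bp. Of 11 collagen receptor genes, 7 had one. These were Ddr1 (3009 bp), Ddr2 (2830 bp), Mrc2 (2679 bp), Itga11 (2462 bp), Itga1 (1318 bp), Itgb1 (995 bp) and Itga2 (722 bp). Ddr2 and Itga11, receptors of fibrillar collagen on mesenchymal cells, had 15 enhancers each. Itga10, Gp6, Lair1 and Oscar, which are known from cartilage, platelets and immune or bone-resorbing cells, had none. Together 38 of 42 such genes had a peak (90.5%), against 60.3% of all genes. A CpG island lay at 31 of the 42, and all 31 of these had a peak, where the share over all genes with an island was 90.2%. Of the 11 without an island, 7 had a peak (63.6%), against 16.9% of all genes without one.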

How the data were processed

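H3K4me3 ChIP-seq was performed in iMEF cells by the authors, who trimmed reads with Trim Galore, aligned them with BWA to mm10 (GRCm38.p6), merged replicates and called narrow peaks with MACS, per their methods. The tool versions are not given in the sources used here. The deposited lists used here hold 25431 peak positions and 32965 enhancer positions, with 0 columns of values per library. The count of enhancers in the paper is slightly lower. The paper also names a deposited list of H3K4me3 sites changed at each time point, which was not used here. Per their methods, the authors took enhancers at least 1 kb away from known TSSs. On the annotation used here, 19 of the 180 enhancers near collagen genes did not meet this rule. Their methods planned a minimum number of raw reads for each library and scaled libraries to the lowest coverage. A test between time points needs values per library, so none was run. Positions count from 1. No autosomal region lay past its chromosome end.

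TSSs were the transcript starts of GENCODE M21, a release that may differ from the authors' annotation. CpG islands were called from the repeat-masked reference by scoring 17 for a CpG and -1 otherwise, and kept above 200 bp, 50% GC and an observed to expected ratio of 0.6. Motif positions count the start as 0. Promoter sequences are those of RefSeq, GRCm38.p6. The functions were tested on simulated data, with 0 of 2400 interval queries and 0 of 1500 motif searches wrong. The software was Python 3.11.15 with NumPy 2.4.6, Numba 0.67.0, SciPy 1.17.1 and Matplotlib 3.10.9.

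The members, classes and gene lists were chosen with earlier results of these data known. Every member was named. Other genes were named only from the fixed lists or as hosts of a counted enhancer. Alternatives were other windows, TSS sets, peak and enhancer rules, islands and classes. Samples were grouped by their labels.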

Additional observations from a re-analysis of the deposited data

How the results depend on the processing

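No paired analysis was possible because both lists hold positions without values per library. Of 36 alternative settings, 32 left the result within its limit. The limit was 1.5 times the reported value for counts and the order-statistic interval for medians. Class shares had to stay in the 95% Wilson interval of the reported share. The basement membrane and other classes held the same genes under the alternative classes, so their shares could not move. With 42 members, the counts of 29 with a peak and 38 with an enhancer could not rise to 1.5 times. The wider window of 2 kb and the wider reach of 100 kb could therefore not move these counts. Leaving out chromosome 15 kept 39 members, so it could not move these counts either. The number of collagen genes with a TSS peak stayed between 24 and 29, the lowest with peaks of at least 500 bp, where the share over all genes was 56.8% and that of the members 57.1%. The number with an enhancer was 26 in the gene body only, 28 with only the nearest coding gene start and 41 within 100 kb. The median number of enhancers per gene moved from 4 to 1 in the gene body only, to 1 with only the nearest coding gene start, and to 1.58 per 100 kb searched. These measures search fewer bases, assign fewer regions or use another unit. The share of cartilage genes with a peak moved from 28.6% to 0% when types II and XI were counted as fibrillar and type IX as FACIT, which left 1 gene, Col10a1, in the class. Col22a1 and Col6a5 lost their peak with a window of 500 bp, Col22a1 and Col18a1 with the principal TSS only, and Col5a1, Col6a3 and Col6a5 where the centre of the peak had to lie within 1 kb. Leaving out chromosome 15 and using the principal TSS only were alternatives chosen with the data in view. The lists do not give the read coverage behind each peak width.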
